A study of Mus musculus with 6 samples.

Results

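Cell cycle and cell division genes were examined in whole hearts of mouse embryos with reduced NKX2-5. They were chosen as the protein-coding genes of the deposited table that carry the GO terms for cell cycle or cell division, leaving out genes that also carry terms for heart and vessel development, muscle and actin, transcription factors, ion transport, adhesion and matrix, protein kinases, G-protein-coupled receptors or mitochondria. The genes reported are 10 of the 1492 protein-coding genes in a table of 1577 genes. All 10 carry the cell cycle term, and 3 of them (Cdc25b, Ccnb3 and Ncapg2) also carry the cell division term.

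RNA came from dissected hearts of C57BL/6 embryos at E11.5. The 3 control hearts (labelled WT) were littermates of the 3 hearts labelled Hypomorph, which come from the Nkx2-5 hypomorphic line. The methods describe genotyping of an Nkx2-5-gfp and of an Nkx2-5-IRES-Cre line, the alleles of each heart are not given in the sources used here, and a hypomorph has less NKX2-5 rather than none. Only the authors' mean for each group is given, and only for genes already past their AC test, which compares read numbers of libraries, and past a fold change of at least 1.5. The spread between hearts and the depth of each heart are therefore unknown, no test between the groups was run here, and a gene's presence in the table is the authors' call. In whole hearts, fewer cells of a type and less RNA per cell cannot be told apart.

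A cell divides by copying its DNA and then separating the copies, and cyclin-dependent kinases (CDKs) drive both steps. Cyclins and CDC25 phosphatases switch CDKs on, and inhibitors such as the INK4 proteins hold them off. Condensins pack chromosomes for mitosis, and homologous recombination repairs broken DNA during and after replication. In the embryonic heart, cardiomyocytes still divide while they contract, so that growth of the chamber walls depends on this machinery.

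Of the 10 genes, 6 were listed as higher in hypomorphic hearts and 4 as lower. The higher genes were Cdc25b, Ncapg2, Brca1, Brca2, Cdkn2c and 1190002H23Rik (Rgcc in RefSeq), and the lower genes were Ccnb3, G0s2, Mlf1 and Txnip. Among all listed protein-coding genes, 42.0% were higher and 58.0% lower. Where a minimum of 1000 raw reads in the group with the larger mean was asked, a limit set after the data were seen, 62.9% of listed genes were higher (273 of 434), and so were 5 of the 8 cell cycle genes left (62.5%). The direction of the cell cycle genes was thus close to that of listed genes with similar read numbers. None of the 10 reached a 2-fold difference in normalized values, though Ccnb3 came to 1.993-fold. Among listed protein-coding genes, 218 of the 627 higher and 267 of the 865 lower reached it, 14.6% and 17.9% of all 1492. With at least 1000 raw reads, 78 of the 273 higher and 32 of the 161 lower did.

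**Figure D1:**
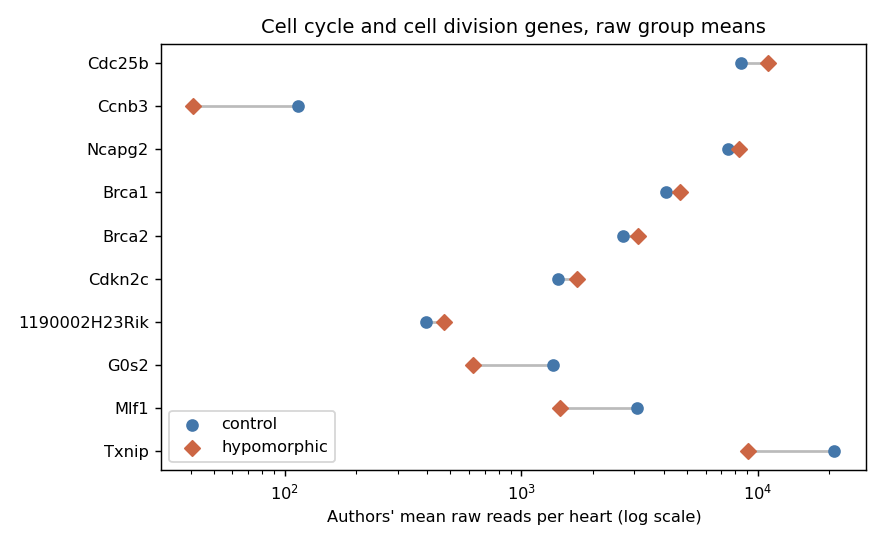
Authors' mean raw reads per heart (log axis) of the 10 cell cycle and cell division genes in control (circles) and hypomorphic (diamonds) hearts, with no error bars because values per heart are not given. The 6 higher genes moved by small steps, at most from 8495 to 11038 reads (Cdc25b), and the 4 lower genes by larger ones, as from 21042 to 9031 reads (Txnip).

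Genes of mitotic entry and mitosis were considered first. Cdc25b, the phosphatase that activates CDK1 at the start of mitosis, averaged 8495 raw reads in control hearts and 11038 in hypomorphic hearts, by the authors' means. Its normalized values, which are log2 group means by the authors around a level of each gene's own, were -0.16 and 0.71, a difference of 0.87 (hypomorphic minus control, 1.83-fold). This was the largest difference among the 6 higher genes, and 54.5% of all genes listed as higher had a smaller one.

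Ncapg2, a subunit of condensin II, had 7433 and 8329 raw reads and normalized values of -0.16 and 0.45, a difference of 0.61. It was near the lower limit of what could be listed, since a difference of 0.58 on the log2 scale is needed and only 7.34% of the genes listed as higher had a smaller difference.

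Ccnb3, a B-type cyclin best known from meiosis, went the other way. It had 114 raw reads in control hearts against 41.0 in hypomorphic hearts and normalized values of 0.63 and -0.37, a difference of -0.99 and the largest of the 10 in size. It also had the fewest reads, so its value is the least precise for counting. Ccnb3 lies on chromosome X, and Xist, the X-inactivation RNA, was listed with 16340 and 53613 raw reads and a normalized difference of 8.74, far more than the log2 ratio of its raw means. The part of unequal sexes in the groups in the Ccnb3 difference was not tested.

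The recombination genes Brca1 and Brca2 were both higher. Brca1, a ubiquitin ligase subunit that acts at DNA breaks, had 4093 and 4660 raw reads and normalized values of -0.20 and 0.43, a difference of 0.63. Brca2, which acts in the repair of DNA breaks by homologous recombination, had 2679 and 3112 raw reads and normalized values of -0.12 and 0.53, a difference of 0.66. The ratio of their raw values was almost the same in both groups, with Brca1 at 2.49 times Brca2 per kb of longest transcript in control and 2.44 times in hypomorphic hearts.

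Cdkn2c and Rgcc were also higher. Cdkn2c encodes p18INK4c, which holds CDK4 and CDK6 inactive in G1. Control hearts had 1430 raw reads of it and hypomorphic hearts 1712, with normalized values of -0.16 and 0.55 and a difference of 0.71. Rgcc, a regulator of cell cycle progression, had 395.5 and 470.8 raw reads and normalized values of -0.25 and 0.48, a difference of 0.73. The higher genes thus include an inhibitor of CDK4 and CDK6 beside an activator of mitosis.

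Txnip, G0s2 and Mlf1 were lower, as was Ccnb3. Txnip, an alpha-arrestin that binds thioredoxin and restrains glucose uptake, had the most reads of the 10, with 21042 in control and 9031 in hypomorphic hearts and normalized values of 0.33 and -0.39, a difference of -0.73. G0s2, an inhibitor of triglyceride lipase named for the switch from G0 to G1, had 1353 and 625.9 raw reads and normalized values of 0.21 and -0.44, a difference of -0.65. Mlf1, myeloid leukemia factor 1, had 3075 and 1449 raw reads and normalized values of 0.26 and -0.34. Its difference of -0.59 was just past the limit, with 3.47% of the genes listed as lower showing a smaller one.

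Whether these genes are higher rests on the scaling between groups. The normalized difference of the 10 genes exceeded the log2 ratio of their raw means by 0.44 to 0.49, as in all listed protein-coding genes (median 0.47, with quartiles at 0.44 and 0.50). This multiplies hypomorphic values by 1.38. At that factor a gene is listed as higher from a raw ratio of 1.08 and as lower only at a raw ratio of 0.482 or less. Without scaling, the raw ratios of the 6 higher genes ran from 1.12 (Ncapg2) to 1.30 (Cdc25b), all under 1.5-fold. Of the 627 protein-coding genes listed as higher, 166 were past 1.5-fold on that scale (11.1% of all 1492 listed). The raw ratios of the 4 lower genes were 0.360 (Ccnb3), 0.429 (Txnip), 0.463 (G0s2) and 0.471 (Mlf1), which is a fall of 2.12-fold to 2.78-fold. All 865 protein-coding genes listed as lower were past 1.5-fold on that scale, as the limit for listing requires at this factor. Over all listed genes, whichever way they were listed, the share past 1.5-fold on that side was 58.1%.

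**Figure D2:**
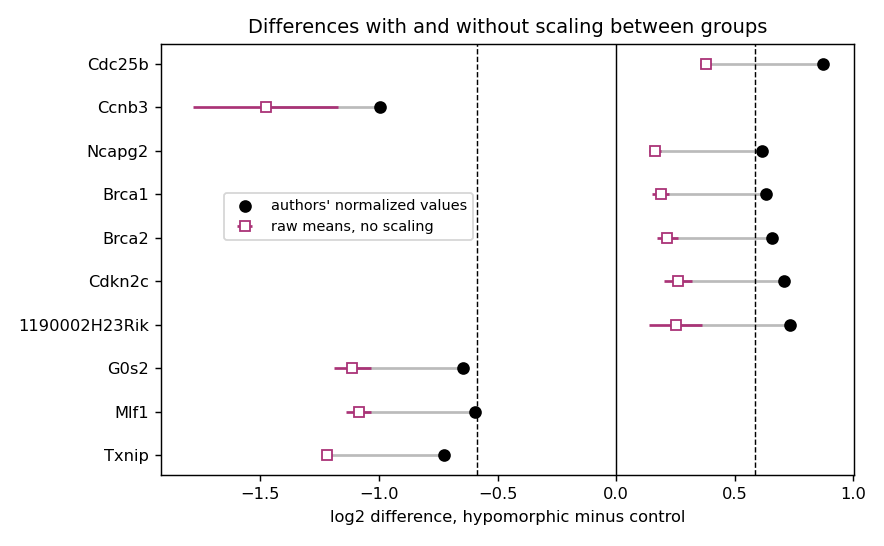
Difference between hypomorphic and control hearts (log2) from the authors' normalized values (black circles) and from raw means without scaling (open squares, with 95% exact binomial intervals for counting error only), with dashed lines at 1.5-fold. The 6 higher genes are past the line only in normalized values. The 4 lower genes are past it in both, as were all 865 protein-coding genes listed as lower.

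Counting error differed among the genes with their reads. If each raw mean is over 3 hearts, the exact binomial 95% interval of the raw ratio, which covers counting error only, was 1.28 to 1.32 for Cdc25b, 1.10 to 1.14 for Ncapg2 and 1.10 to 1.29 for Rgcc. It was 0.423 to 0.435 for Txnip and 0.290 to 0.443 for Ccnb3. The difference between hearts, which these intervals leave out, could be larger and is not known.

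**Figure D3:**
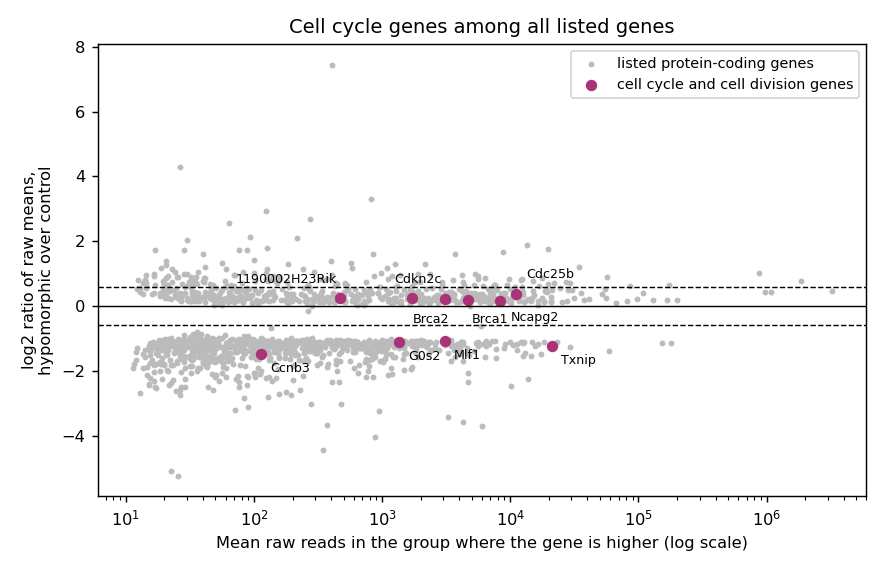
Log2 ratio of raw means (hypomorphic over control) against mean raw reads in the group where the gene is higher (log axis), for all 1492 listed protein-coding genes (grey) and the 10 cell cycle genes (purple), with dashed lines at 1.5-fold. The 6 higher genes sit in the band just above 0 and the 4 lower genes in the band just under -1, where most listed genes lie.

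Comparisons of the genes with each other do not depend on the scaling, because a factor between groups cancels. Read density (raw reads per kb of the longest annotated transcript) was used for this. In control hearts Txnip was highest at 7443 reads per kb, followed by Mlf1 at 2760 and Cdc25b at 2750. In hypomorphic hearts Cdc25b came first with 3573 reads per kb, Txnip followed with 3194 and Mlf1 with 1301. Cdc25b thus went from 0.369 to 1.12 times the level of Txnip, a shift of 3.03-fold. As Cdc25b was listed as higher and Txnip as lower, the limits of the list set the direction of this shift. They also set part of its size, since raw ratios of 1.08 or more and 0.482 or less were needed at the median factor.

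Mlf1 went from the second to the third place and G0s2 from the fourth to the fifth, from 1607 to 743.4 reads per kb. Brca1, Cdkn2c, Rgcc, Brca2 and Ccnb3 held places 6 to 10 in both groups. Ccnb3 was lowest, at 25 and 9.0 reads per kb. Neighbours such as Mlf1 and Cdc25b in control hearts, or Brca1 (709.1) and Cdkn2c (692.8) in hypomorphic hearts, lie so close that their order cannot be trusted without the spread between hearts. Among the 6 higher genes the raw log2 ratios differed by at most 0.21, and among the 4 lower genes by at most 0.39. The gap of 1.25 between the directions is set mostly by the limits of the list, which hold for any genes in it.

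**Figure D4:**
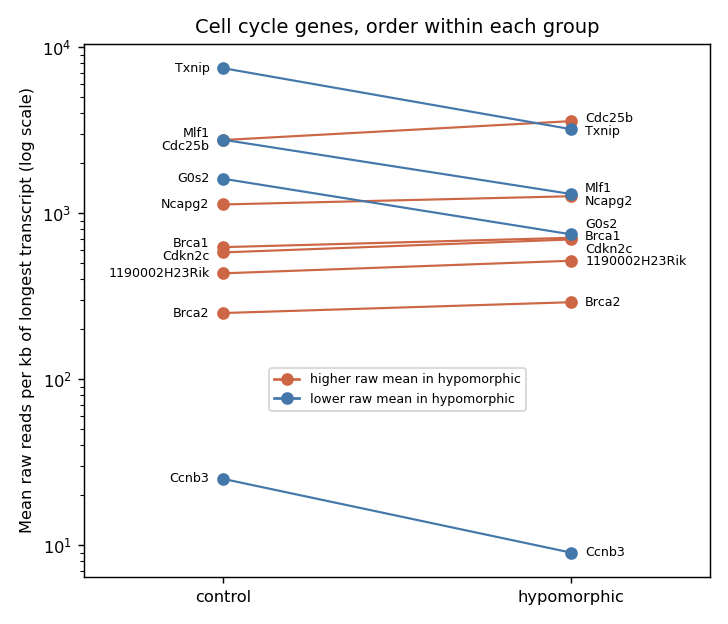
Mean raw reads per kb of the longest transcript (log axis) in control and hypomorphic hearts, with a line for each of the 10 genes, orange where the raw mean was higher and blue where it was lower in hypomorphic hearts. The lines of Txnip and Cdc25b cross, from 7443 and 2750 reads per kb in control to 3194 and 3573 in hypomorphic hearts. That orange lines rise against blue ones follows from the limits of the list.

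Other genes of the pathway were looked up from lists of known members. Of 34 genes of the G1/S transition and DNA replication, 3 were listed, namely E2f2 (normalized difference 1.13), Orc1 (0.95) and Tyms (0.59). All 3 were higher, against 42.0% of all listed protein-coding genes. E2f2 and Tyms had at least 1000 raw reads, where 62.9% of listed genes were higher, while Orc1 had at most 101.8 in either group. Of 34 genes of the G2/M transition and mitosis, 3 were listed, which are Cdc25b, Ccnb3 and the proliferation marker Mki67, with 55166 and 85552 raw reads and a normalized difference of 1.12. The raw ratios of Mki67 (1.55) and E2f2 (1.505) were past 1.5-fold without scaling, which none of the 6 higher genes above was.

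Of 26 checkpoint and recombination genes, Brca1, Brca2 and the checkpoint kinase Chek2 (0.63) were listed. Of the other lists, 1 of 10 CDK inhibitors and pocket proteins (Cdkn2c) and 1 of 15 condensin and cohesin genes (Ncapg2) were listed. Of 10 thioredoxin and alpha-arrestin genes, Txnip was listed as lower and Arrdc2 as higher (0.79). The levels of list genes outside the table were not analysed here. Only called genes are given, so the share of all measured genes that were listed is not known. The counts of listed genes from any list therefore cannot be read as many or few.

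Of the genes that the rule left aside for another GO term, 11 are given here, and of these 7 were higher and 4 lower. The share higher was 63.6%, against 42.0% of all listed protein-coding genes. The higher ones were Mak (1.45), E2f2 (1.13), Trp63 (1.01), Steap3 (0.83), Cdk8 (0.73), Chek2 (0.63) and Hcfc1 (0.59), and the lower ones Mapk13 (-0.93), Rgs14 (-0.82), Cdkl2 (-0.68) and Mapk4 (-0.60), all as normalized differences. E2f2, Steap3, Cdk8, Chek2 and Hcfc1 had at least 1000 raw reads in the group with the larger mean. All of these were higher, against 62.9% of listed genes with that many reads. The rest had fewer reads, with at most 159.5 (Mak), 22.0 (Trp63), 147.4 (Mapk13), 34.5 (Rgs14), 301.7 (Cdkl2) and 92.3 (Mapk4) in either group.

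Markers of some other cell types also differed between the groups. Over all listed protein-coding genes, 42.0% were higher and 58.0% lower, and 62.9% were higher among those with at least 1000 raw reads. Of 18 erythroid genes, 16 were listed and all 16 were higher (normalized differences 0.87 to 1.67), with summed raw means of 5734660 reads in control and 8477470 in hypomorphic hearts. Of 10 macrophage genes, 5 were listed and all 5 were lower (-3.59 to -0.62), with summed raw means of 5367 and 869.5 reads. Of 12 cardiac muscle genes, Myl7 was listed as higher (0.63) and Nppa as lower (-0.66), and of 6 endothelial and 4 epicardial genes none was listed. The smallest erythroid difference, 0.87 (Hbb-b1), was about that of Cdc25b, the largest among the 6 higher cell cycle genes. This holds for normalized values only, since the raw ratios were 1.13 for Hbb-b1 and 1.30 for Cdc25b. The part of blood cells or macrophages in the values of the 10 genes was not tested.

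**Figure D5:**
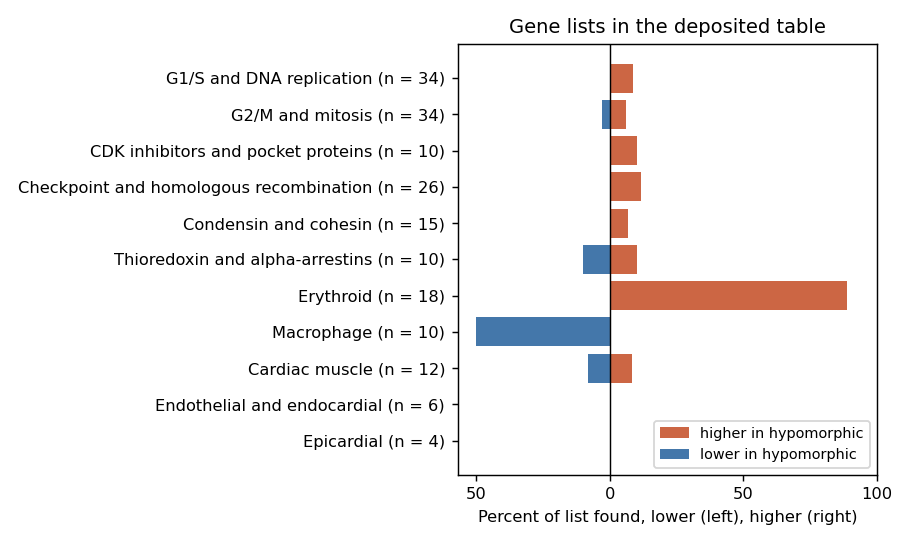
Share of each gene list (percent of its n genes) found in the deposited table as higher (orange, right) or lower (blue, left) in hypomorphic hearts. The lists of the G1/S and of the G2/M transition have 3 listed genes each, and 16 of 18 erythroid genes were listed as higher and 5 of 10 macrophage genes as lower.

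The 10 genes share annotations besides those named in the rule, though these are not independent of it. The nucleus term was attached to 9 of 10 genes, all but G0s2, against 15.4% of listed protein-coding genes. Mitosis was attached to Cdc25b and Ncapg2, 2 of only 5 listed genes with that term, and both were higher. Centrosome was attached to Brca1 and Brca2, 2 of 10 listed genes. Cell cycle arrest was attached to Cdkn2c and Mlf1, which differ in direction, and regulation of CDK activity to Cdkn2c and Ccnb3, which differ too. GO terms overlap, and mitosis, cell cycle arrest and regulation of CDK activity are close to the terms of the rule. The rule also left out genes with terms for mitochondria, adhesion and matrix or ion transport, which can raise the share of the nucleus term. These shares are therefore a description of the choice.

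Their places in the genome (mm9, GENCODE M1) are dispersed. Cdc25b lies on chr2:131012685-131024233 (plus strand), Ccnb3 on chrX:6556778-6618745 (minus) and Ncapg2 on chr12:117643875-117702004 (plus). Brca1 lies on chr11:101350078-101413269 (minus), Brca2 on chr5:151325205-151372321 (plus), Cdkn2c on chr4:109333481-109339794 (minus) and Rgcc on chr14:79688558-79701442 (minus). G0s2 lies on chr1:195098355-195099382 (minus), Mlf1 on chr3:67178019-67203925 (plus) and Txnip on chr3:96361880-96365806 (plus). Genes on the other strand overlap 5 of them, namely Spef1 (Cdc25b), D430020J02Rik (Ncapg2), Gm17402 (Mlf1), the noncoding Gm15441 (Txnip, over its whole length) and small nuclear RNA genes (Brca2). Counting is not stated to use strand, so reads within the overlaps cannot be told apart.

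Promoter letters were read because genes of the cell cycle are often controlled there, by E2F factors in G1/S and through CHR and CCAAT elements in G2/M. Windows of RefSeq (GRCm38.p6, 250 bases before the start and 50 from it on) were matched by gene ID for all 10 genes, with 11 windows as Cdkn2c has 2 starts. Both strands were searched for the E2F strings TTTGGCGC, TTTCGCGC and TTCCCGC, for the CHR as TTTGAA or its variant TTCGAA, for CCAAT, for the E-box CACGTG and for TNAAGTG, an NKX2-5 core. Stretches before the start that hold a match are shown 5′ to 3′ on the strand of the gene, with the matched letters in capitals. A match on the other strand thus reads as its reverse complement. The higher genes come first.
Cdc25b, chr2:131186890-131186947, plus strand, a CCAAT: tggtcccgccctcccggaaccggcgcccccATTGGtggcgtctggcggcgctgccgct
Ncapg2, chr12:116405186-116405223, plus strand, a TTCCCGC: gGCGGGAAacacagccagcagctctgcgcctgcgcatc
Ncapg2, chr12:116405388-116405435, plus strand, a CHR: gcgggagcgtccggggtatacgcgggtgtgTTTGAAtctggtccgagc
Brca1, chr11:101552007-101552071, minus strand, a CCAAT: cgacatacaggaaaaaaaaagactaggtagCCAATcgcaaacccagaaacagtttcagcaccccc
Brca2, chr5:150522423-150522489, plus strand, a TTCCCGC: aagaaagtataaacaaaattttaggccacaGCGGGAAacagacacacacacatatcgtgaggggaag
Cdkn2c, chr4:109666757-109666811, minus strand, a TTCCCGC: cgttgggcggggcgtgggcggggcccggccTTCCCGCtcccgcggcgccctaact
G0s2, chr1:193273365-193273431, minus strand, a TNAAGTG: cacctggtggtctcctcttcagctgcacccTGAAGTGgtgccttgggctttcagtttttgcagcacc
Mlf1, chr3:67374032-67374096, plus strand, a CCAAT: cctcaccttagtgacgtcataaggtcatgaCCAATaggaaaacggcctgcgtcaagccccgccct
Txnip, chr3:96557790-96557889, plus strand, a CCAAT on each strand: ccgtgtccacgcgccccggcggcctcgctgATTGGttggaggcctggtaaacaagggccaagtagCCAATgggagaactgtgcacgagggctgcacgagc

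The short E2F string TTCCCGC was found in windows of 4 genes, Ncapg2, Brca2, Cdkn2c and Mlf1 (in Mlf1 after the start), that is in 4 of 11 windows against 4.60% of all 32851 windows, 7.32% of windows of genes listed as higher and 5.44% of those listed as lower. CCAAT was found in 5 of 11 windows (37.4% of all windows), the CHR in 1 (17.9%) and its variant in 1, after the start of Cdc25b (1.56%). The NKX2-5 core was found in 1 window, that of G0s2 (11.54%), CACGTG in 1, after a start of Cdkn2c (7.15%), and the longer E2F strings in none (0.514% and 0.323% of all windows). The windows of the 10 genes were richer in G and C (median 65.3%) than all windows (52.7%), and how far this sets the count of TTCCCGC was not tested. The windows of Rgcc and Ccnb3 held none of the strings.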

How the data were processed

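RNA from whole E11.5 hearts (3 control, 3 hypomorphic) was read on a Genome Analyzer IIx (Illumina). The authors aligned reads to mm9 with TopHat and used Avadis NGS to compare the groups (AC test, fold change of at least 1.5). The submitters' notes name CASAVA 1.4, and other versions and the p threshold are not given in the sources used here. The deposited raw values are estimated counts of each gene, averaged over a group. The deposited normalized values are log2 group means, and how they were normalized is not given. The deposited columns of fold changes and direction were not used.

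Of values under 100 reads, 23.8% (control) and 27.1% (hypomorphic) lay within 0.01 of a multiple of 1/3, against 9.56% and 10.2% for 1/2, as for means over 3 hearts. Differences were computed as hypomorphic minus control normalized values, and ratios from raw means. With group values only, the tests set for values per heart were not run, and the depth per heart is unknown. The scripts were checked on simulated data with a known factor between groups, in which most genes did not change. Every gene of the deposited table had been called, so this check does not show which factor is right. The genes and gene lists were chosen with earlier results of these data known, and the genes of the rule are named, except that 2 genes with these GO terms are not reported here. Lists cover known members, whichever way they moved. Transcript lengths came from GENCODE M1. Software was matplotlib 3.10.9, scipy 1.17.1, pandas 2.3.3 and numpy 2.4.6 under Python 3.11.15.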

Additional observations from a re-analysis of the deposited data

How the results depend on the processing

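The number of cell cycle genes past 1.5-fold was 6 higher and 4 lower in the authors' normalized values. It was 0 higher and 4 lower without scaling, with raw means scaled to the table's total and with that total without globin genes, and 6 higher and 0 lower with the median ratio over listed genes. These totals and medians are over genes already called, so they are not depths. A fold of at least 2 left 0 and 0, the cell division term alone 2 and 1, and keeping genes with a left-out GO term gave 13 and 8. With at least 1000 raw reads, a limit added after the data were seen, it was 5 and 3. The median factor of the table, at least 100 raw reads and the cell cycle term alone gave 6 and 4.

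Scaling to the table's total reversed 5 higher genes, to -0.11 (Cdkn2c), -0.12 (1190002H23Rik), -0.15 (Brca2), -0.18 (Brca1) and -0.20 (Ncapg2) on the log2 scale, and left Cdc25b at 0.0096. The median ratio reversed Mlf1 to 0.0022. Of 60 values of single genes under 6 alternatives, 32 kept direction and stayed past 1.5-fold, 22 kept direction only and 6 reversed. These 60 are not separate checks. The median factor of the table comes from the normalized values themselves, so that all 10 genes stayed past 1.5-fold with it is no check. A pseudocount of 1 on raw means changed no call made without scaling. Which factor is right was not tested.

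No paired analysis was possible because only group means are given, and for that reason no replicate was left out.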

Other observations

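The E2F string TTTCGCGC, in none of the windows of the cell cycle genes above, was found in 11 of 628 promoter windows (1.75%) of protein-coding genes listed as higher and in 0 of 791 windows of genes listed as lower, against 0.323% of all windows. It was picked from 8 strings after the counts were seen, and the difference was not tested.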
